A study of Caenorhabditis elegans with 30 samples.

Results

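The study reports that *set-26* mutants are long-lived and that *hda-1* RNAi begun in adults shortens their lifespan, also without a germline. This comparison asked which transcripts still separated *set-26* mutants from their control when both were old and both were fed *hda-1* RNAi. It rests on 4 of the 30 libraries in the study: replicates 1 and 2 of *glp-1(-);set-26(-)* and replicates 1 and 2 of the *glp-1(-)* control, all at day 12 of adulthood and all on *hda-1* RNAi. The members were taken from the genotype, diet and day that each label gives. Control worms carried *glp-1(e2141)*, a temperature-sensitive allele that leaves worms raised at the restrictive temperature without a germline. The mutants carried the same allele and *set-26(tm2467)*, and the *hcf-1* mutants used beside them carried *glp-1(e2141)* and *hcf-1(pk924)*. Each genotype was 1 strain, and each library came from pooled whole hermaphrodites. Worms grew on the L4440 empty vector bacteria (EV), and on day 1 each population was divided between EV and bacteria that express double-stranded RNA of *hda-1*, so knockdown by feeding began in adults and was not limited to a tissue. The other comparisons used here are the same 2 genotypes on EV at day 12, the same 2 on *hda-1* RNAi at day 3, and day 12 *hcf-1* mutants fed *hda-1* RNAi, with 2 libraries in each group.

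SET-26 is a chromatin protein that binds histone H3 trimethylated at lysine K4 and is related to human MLL5 and SETD5. HCF-1 is its conserved cofactor. HDA-1 is a class I histone deacetylase and the worm counterpart of mammalian HDAC1 and HDAC2, enzymes that remove acetyl groups from histones and are mostly linked to gene repression. In whole worms RNA comes mainly from intestine, hypodermis, muscle and neurons, and a lower transcript level in such bulk samples cannot be told apart from fewer cells of a type or less RNA per cell.

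The 4 libraries held 7645370 to 8841931 reads and the 30 libraries 6045498 to 17748121, so raw reads of a gene are comparable among the 4 within that range. Where pairs of read counts stand as a pair against a pair, the first are control replicates 1 and 2 and the second *set-26* replicates 1 and 2. The labels separate the day 12 replicates only by number, and the study states at least 2 biological replicates for all its experiments. P-values measure only the spread between these few libraries. *hda-1* reads numbered 12582 and 11710 for control and 12295 and 7279 for *set-26*, against 361 and 250 against 339 and 314 with EV. The libraries labelled *hda-1* RNAi thus had more *hda-1* reads than the EV libraries, and whether they came from the double-stranded RNA was not tested. Between genotypes *hda-1* differed by -0.38 on the log2 scale (adjusted p = 0.72, edgeR), and this is not a measure of knockdown. *set-26* had 153 and 105 control reads and 227 and 154 in libraries labelled *set-26(-)*, so it was not lower there, and reads at the end of a transcript cannot check a mutation elsewhere in the gene. Its paralog *set-9*, whose reads may be confused with those of *set-26*, had 27 and 9 against 55 and 18 reads. *hcf-1* had 126 and 79 against 204 and 187, and *glp-1*, the Notch receptor of the germline, 230 and 124 against 281 and 149. None of these genes passed the test between *set-26* and control. Of 13 germline marker genes 5 had enough reads to be tested and 1, *syp-1*, was called higher. The summed level of the 13 was 41.2 and 46.3 CPM (normalised read counts, scaled for depth by TMM) in control and 72.1 and 61.3 in *set-26* libraries. This sum includes *syp-1*, whose own rise, given below, was at least about as large as that of the sum. The sum thus does not show that germline markers rose as a group. Of 46 sperm markers 31 had 0 reads in all 4 libraries, and their summed level ranged from 136.9 to 207.1 CPM in control and from 163.1 to 185.3 in *set-26*. The 12 genes on the oocyte list summed to 7163 and 8714 CPM in control and to 6095 and 5186 in *set-26* libraries, with none called. Their part in the results was not tested. No marker of intestine, body wall muscle, pharynx, neurons, epidermis or coelomocytes was called.

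Old *set-26* mutants on *hda-1* RNAi were still set apart from control by 463 genes, and the genes that rose outnumbered and exceeded those that fell. Many genes of the intracellular pathogen response rose, among them 21 of 33 *pals* genes, and an abundant member, *pals-14*, was 70.5-fold higher. Histone genes gave the most lower calls of the gene lists examined. The quasi-likelihood test of edgeR was run on 14256 genes, and 463 passed an adjusted p of 0.05 (3.25%), 299 of them higher (2.1%) and 164 lower (1.15%) in *set-26*. The median log2 fold change was 2.04 over the genes called higher and -1.54 over those called lower, and 154 and 51 of them changed by more than 2 on that scale, against a median of -0.01 over all genes tested. In every called gene both *set-26* libraries lay on the same side of both control libraries. A test with 2 libraries per group largely requires this of a call. The share of all tested genes that did so is not given here, so it adds nothing to the calls. The number of calls depended on single libraries. It was 89 without control replicate 2, 298 without control replicate 1, 190 without *set-26* replicate 1 and 293 without *set-26* replicate 2. Without control replicate 1 the split turned to 144 higher and 154 lower. Of the 131 called genes considered for naming, 45 stayed called whichever library was left out, and a dagger (†) marks each named gene that did not. The calls lost among the 131 were 34, 83, 65 and 53 for control replicates 1 and 2 and *set-26* replicates 1 and 2 in that order.

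The *pals* genes encode a large worm family of proteins with no settled biochemical function, and many of them are induced when microsporidia or Orsay virus infect the intestine. This set of infection genes is called the intracellular pathogen response. Of 38 annotated *pals* genes 33 were tested, and 21 were called higher and 0 lower (63.6%, against 3.25% of all genes), with a median log2 fold change of 1.69. Without control replicate 2 the number was 12. Of the 33 genes 30 had more than 10 reads in all 4 libraries, and 18 of these were called. *pals-14* (WBGene00009061, chromosome I from 13139122 to 13141898 of WBcel235) had 381 and 389 control reads and 23851 and 34682 mutant reads. Its log2 fold change was 6.14 (standard error 0.28, n = 2 per group, edgeR adjusted p = 8.11e-06). It was the most abundant of the family in *set-26*, and the reads of the 2 genotypes did not overlap. *pals-5*, whose promoter is widely used as a reporter of the response, had 27 and 29 control reads and 1313 and 1526 mutant reads, and its change was 5.56 on the log2 scale (adjusted p = 8.11e-06). *pals-10* went from 11 and 8 reads to 609 and 1244, a change of 6.48 (adjusted p = 5.34e-05). *pals-29* on chromosome IV went from 68 and 40 to 1199 and 1631 (4.62, adjusted p = 5.34e-05). All 4 genes were at low to moderate levels in both control libraries and high in both *set-26* libraries.

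**Figure D1:**
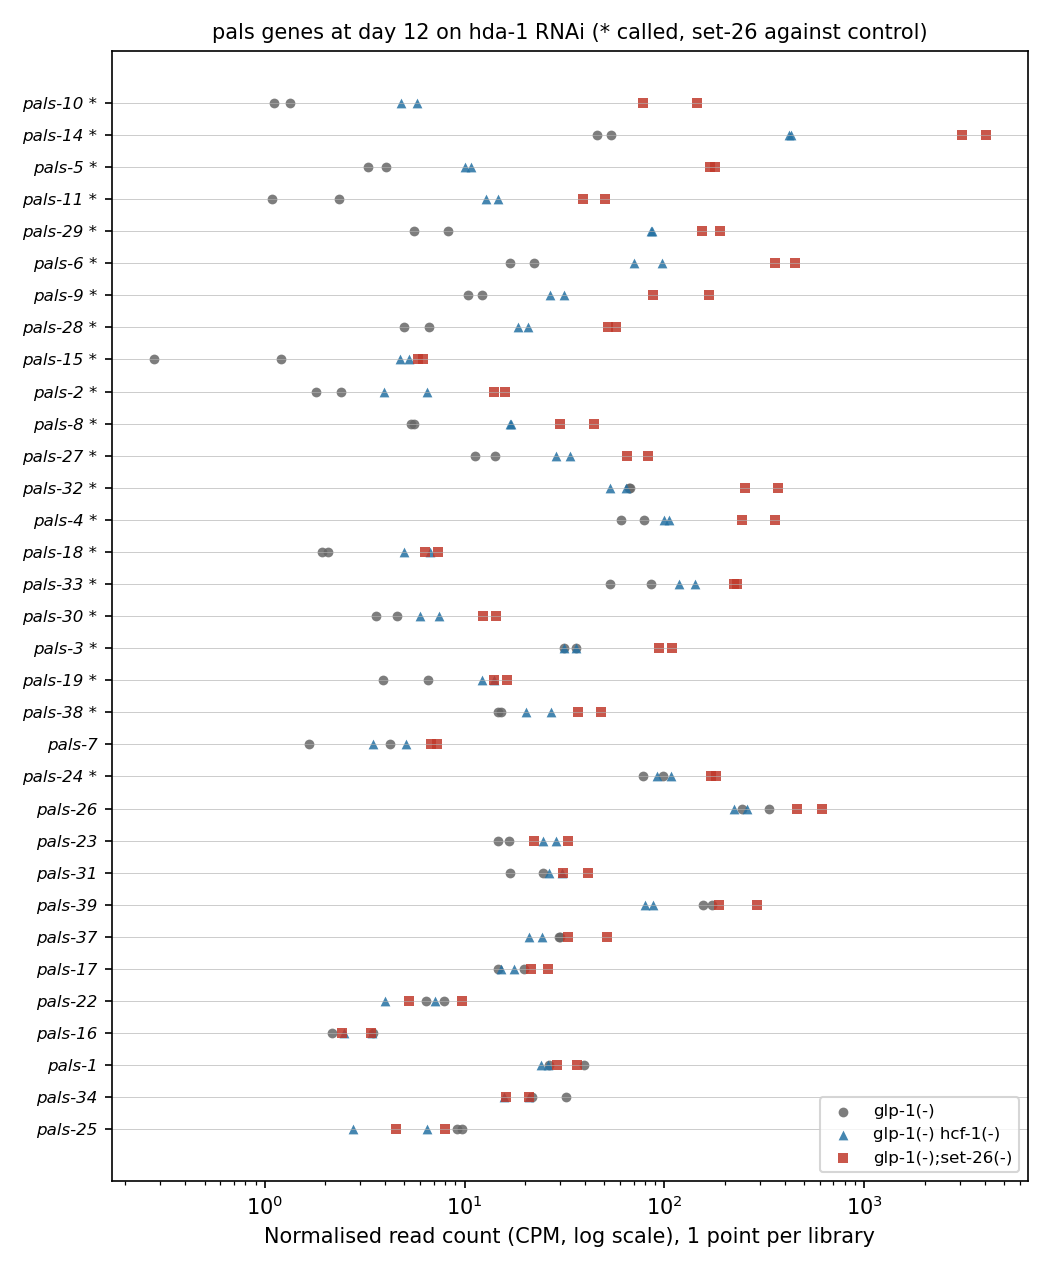
Normalised read counts (CPM, log axis) of the 33 *pals* genes tested, at day 12 on *hda-1* RNAi, with 1 point per library for *glp-1(-)* control (grey circles), *hcf-1* (blue triangles) and *set-26* (red squares) and an asterisk for the 21 genes called in *set-26* against control. Genes are ordered by fold change, and both red squares lie to the right of both grey circles in all 21, a separation found in every called gene.

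Many of the calls were neighbours in the genome. On chromosome I, 12 tested *pals* genes lie within 40.4 kb (from 13104251 to 13144623), and 11 of them were called higher. These were *pals-2*†, *pals-3*†, *pals-4*, *pals-5*, *pals-6*, *pals-8*, *pals-9*, *pals-10*, *pals-11*, *pals-14* and *pals-15*†. The other member, *pals-7*, had 35 and 12 control reads and 53 and 62 mutant reads (log2 fold change 1.22, adjusted p = 0.169). Further calls came from chromosome III, where 5 of 11 members rose, chromosome IV with 2 of 2, and chromosome V with 3 of 7. Among these, *pals-28* rose from 41 and 48 to 406 and 489 reads and *pals-32* from 546 and 483 to 1972 and 3166. The regulatory pair of the family, *pals-22*, which represses the response, and *pals-25*, which activates it, did not pass the test. *pals-22* had 53 and 57 control reads and 41 and 83 mutant reads, and *pals-25* 76 and 70 against 62 and 39. Members of the family share sequence, and reads that matched more than 1 place were not counted.

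Other genes of the intracellular pathogen response rose as well. Outside the *pals* family, 20 genes of the response were tested from a list assembled after values were seen, and 11 were called higher and 0 lower (2.1% of all genes were higher), with a median log2 fold change of 1.59. That number was 7 without control replicate 2. Among them *F26F2.1* went from 22 and 17 to 229 and 314 reads (log2 fold change 3.70, adjusted p = 0.000346) and *F26F2.3* from 14 and 2 to 283 and 787 (5.94, adjusted p = 0.00103). *B0507.8* had 329 and 428 control reads and 2189 and 3769 mutant reads, and its neighbour on chromosome V, *ddn-1*, 924 and 900 against 5439 and 8836. The F-box genes *fbxa-75* (16 and 16 against 123 and 234 reads) and *fbxa-182* (78 and 69 against 291 and 436) also rose, and F-box proteins select targets for ubiquitin ligases. *zip-1*†, a bZIP transcription factor that activates part of the response, was higher by 1.06 on the log2 scale (standard error 0.24, adjusted p = 0.0454). Other regulators and ligase parts were not called. *drh-1*, a RIG-I-like receptor of viral RNA, had 131 and 93 against 100 and 123 reads, *cul-6*, a cullin of the ligase that protects worms from proteotoxic stress, 189 and 305 against 208 and 287, and *pnp-1*, a purine phosphorylase that represses the response, 444 and 321 against 372 and 539. *eol-1*, related to an enzyme that removes faulty RNA caps, had 1339 and 1284 against 2179 and 2968 reads (log2 fold change 0.87, adjusted p = 0.0582).

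Some heme genes were also called higher. Worms cannot make heme and take it from food, and several *hrg* transcripts are known to increase when heme is low. Of 8 *hrg* genes tested, a group chosen after values were seen, 4 were called higher and 0 lower, against 2.1% of all genes higher, and 2 of the 8 values were negative. *hrg-7*, a secreted protease-like signal of heme status between tissues, had 172 and 102 control reads and 1141 and 1618 mutant reads (log2 fold change 3.25, standard error 0.27, adjusted p = 0.000346). *hrg-2*, a heme-binding protein of the hypodermis, had 36 and 51 against 445 and 551 (3.40, adjusted p = 0.000401). *hrg-1*, a transporter that moves heme out of endolysosomal vesicles, had 362 and 471 against 1799 and 2570 (2.27, adjusted p = 0.00307). *hrg-3*†, a carrier of maternal heme, rose less, from 21 and 20 to 60 and 100 reads. The first 3 were also higher on EV, by 3.26, 2.80 and 1.48 on the log2 scale, and on *hda-1* RNAi at day 3, by 1.39, 3.31 and 0.88, all called.

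The meiosis genes *syp-1* and *dsb-3* were called higher, while other meiosis genes were not. *syp-1*, a synaptonemal complex protein, had 26 and 28 control reads and 284 and 277 mutant reads (log2 fold change 3.28, standard error 0.29, adjusted p = 0.000417). *dsb-3*, needed for meiotic DNA breaks, had 5 and 3 against 93 and 133 reads (4.69, adjusted p = 0.000567). Both were also called higher at day 3, by 3.38 and 3.88 on the log2 scale. *syp-3*, of the same complex, had 31 and 31 against 13 and 30 reads and was not called, *syp-2* had too few reads to be tested, and *rec-8*, a meiotic cohesin, had a log2 fold change of 1.89 (adjusted p = 0.137).

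Among other genes that rose, C-type lectins, proteins with a sugar-binding fold often linked to immunity, gave 8 higher and 1 lower call of 106 tested (2.1% and 1.15% of all genes), with a median log2 fold change of 0.22. Without control replicate 2 there were 3 higher calls and without *set-26* replicate 1 there were 5, and the median was 0.73 without control replicate 1. *clec-45* was almost silent in control, at 1 and 0 reads, and had 121 and 70 in *set-26*, and *clec-17* went from 13 and 18 to 178 and 169. Of 113 F-box A genes, again grouped after values were seen, 12 were higher and 0 lower, against 2.1% and 1.15% of all genes. It was 4 higher and 0 lower without control replicate 2, 6 higher and 3 lower without control replicate 1, and 6 higher without *set-26* replicate 2. The most abundant of the called ones, *fbxa-66*, had 154 and 86 against 946 and 1115 reads. Cytochromes P450, which oxidise foreign and fatty compounds, gave 4 higher and 1 lower call of 67 (0 without control replicate 2, 2 without control replicate 1 and 1 without *set-26* replicate 1), and *cyp-14A1*† had 254 and 157 against 673 and 833 reads. *acdh-1*, an acyl-CoA dehydrogenase of propionate and branched-chain metabolism, had 23 and 4 against 178 and 229 reads (log2 fold change 3.84, adjusted p = 0.00334), and its difference was larger at day 3, at 8.44 (genotype by day interaction adjusted p = 0.0175). *cir-1*, related to a corepressor of Notch signalling, rose from 2025 and 1945 to 8750 and 10443 reads. *W04G5.16*, *Y57G11C.48*, *C46A5.6* and the chemoreceptor-like *sru-40* had at most 9 reads in either control library and 94 to 298 in either mutant library. *scl-19*† and *cpr-2*†, a secreted protein and a cysteine protease, were called higher here, and neither was called on EV. *cpr-2* had 486 and 263 control reads and 6491 and 2879 mutant reads here, and 75524 and 3687 against 32129 and 14960 on EV, where the control replicates lay far apart. Among tRNA genes 12 were tested and 3 were called higher, all on the mitochondrial genome. One of these, WBGene00014456† (chosen after its values were seen), had 3 and 3 control reads and 36 and 35 mutant reads. Mitochondrial protein-coding transcripts included *COX3*, which had 55066 and 32838 control reads and 38742 and 39966 mutant reads and was not called (adjusted p = 0.648).

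Histone genes gave more lower calls than any other list examined. Replication-type histone messages are made in dividing cells and mostly lack a poly(A) tail, which the library method needs, so the reads count only tailed transcripts. Of 36 histone genes tested, 0 were called higher and 13 lower (36.1%, against 3.25% of all genes), with a median log2 fold change of -1.27, and 33 of the 36 values were negative. The list also holds *hpl-1* and *hpl-2*, heterochromatin proteins that are not histones, and neither was called. Of the 36 genes 27 had more than 10 reads in all 4 libraries, and 10 of these were called. Single libraries decided much of this. The number of lower calls was 1 without control replicate 2, 2 without *set-26* replicate 1 and 4 without *set-26* replicate 2. *his-3*†, an H2A gene, had 390 and 634 control reads and 54 and 155 mutant reads (log2 fold change -2.44, standard error 0.44, adjusted p = 0.017). *his-60*†, an H4 gene, had 377 and 698 against 118 and 204 (-1.88, adjusted p = 0.0256). *his-40*, the 1 histone gene that kept its call under every alternative, had 76 and 117 against 10 and 11 (-3.30, adjusted p = 0.00363). In all 3 genes control replicate 2 was the highest library. Among the replacement histones, which non-dividing cells also use, *his-74*†, an H3.3-like gene, was called lower, with 95 and 105 against 43 and 35 reads. *his-72*, an H3.3 gene, had 3832 and 4164 against 3477 and 3232 reads and *his-71*, another H3.3 gene, 1081 and 1136 against 457 and 978, and neither was called.

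Over all 83 annotated genes of the histone list, with no filter on reads, the summed level on *hda-1* RNAi was 1530 and 2026 CPM in control, 1053 and 1191 in *set-26* and 1093 and 1172 in *hcf-1*. On EV it was 1311 and 1449 in control, 1106 and 1122 in *set-26* and 1019 and 1066 in *hcf-1*. Both control libraries were thus above the libraries of both mutants on *hda-1* RNAi and also on EV. The number of the 83 genes with more than 10 reads was 16 in both EV control libraries, 15 and 17 in EV *set-26* libraries, 33 and 34 in control on *hda-1* RNAi and 28 and 33 in *set-26* on *hda-1* RNAi. These numbers were not adjusted for depth, and they were higher on *hda-1* RNAi in both genotypes. *his-3*, for example, had 9 and 8 control reads and 6 and 5 mutant reads on EV, and *his-60* had 3 and 1 against 0 and 1. Too few reads remained on EV for many of them to be tested there, where 18 were. The interaction of genotype and diet was called for none of the 36 in the fit without a block, so a larger response in control was not shown by that test. With the population as a block 1, *his-15*, was called, with 0 and 1 (control) against 10 and 20 (mutant) reads for EV, and 112 and 72 against 40 and 51 for *hda-1* RNAi. Many histone genes are near-identical copies, so the split of reads among them is uncertain.

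**Figure D2:**
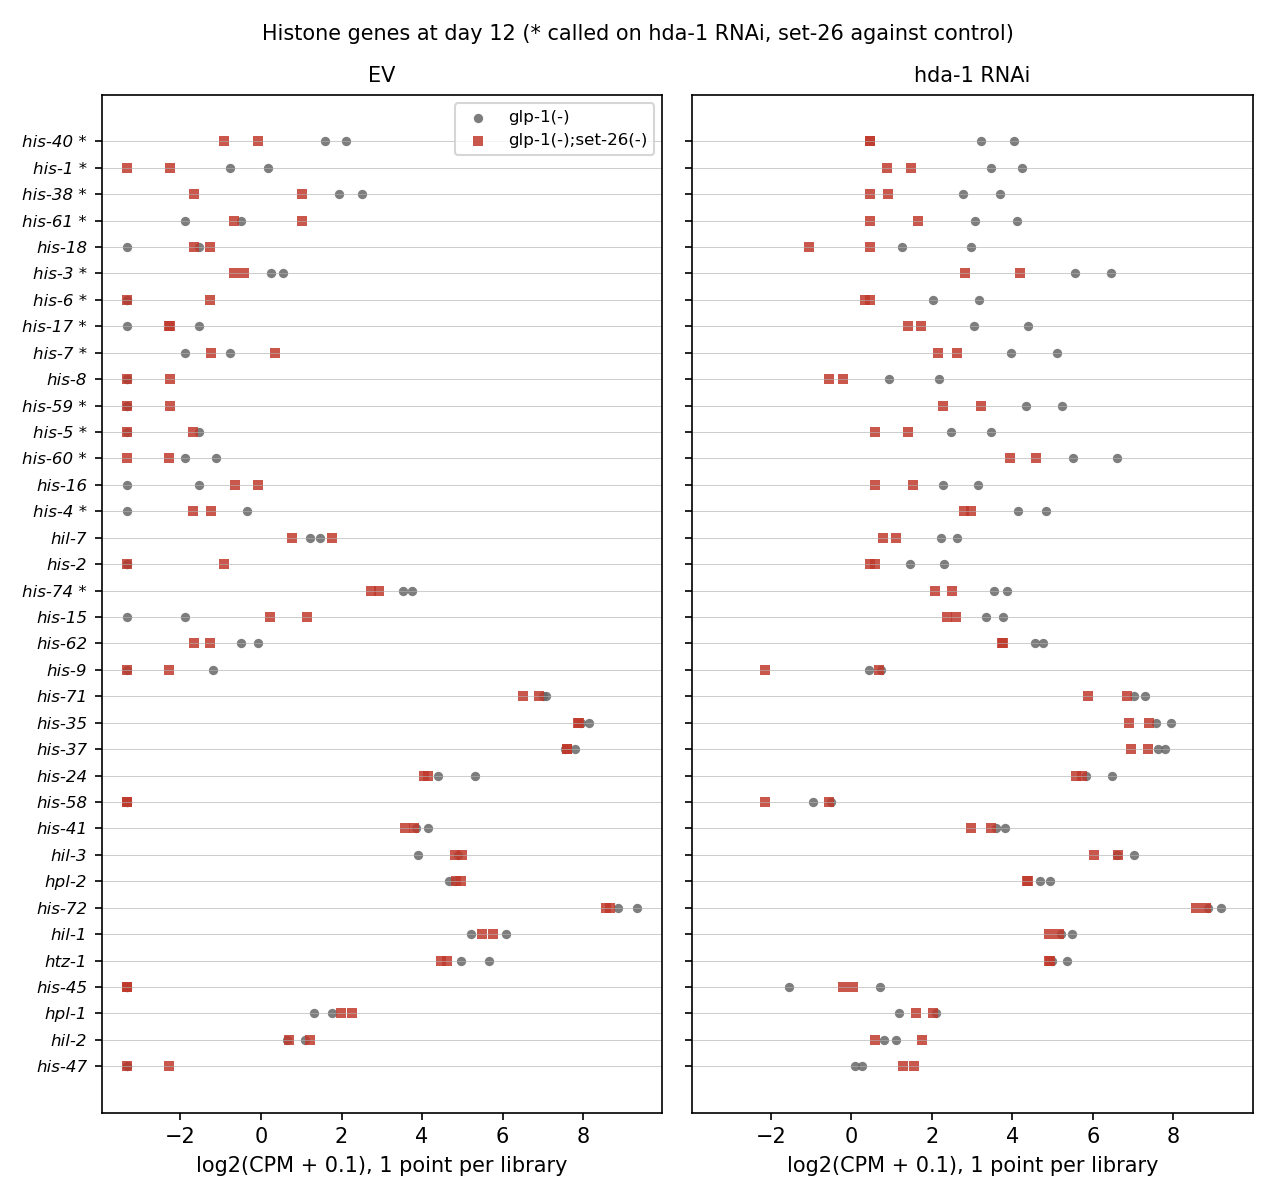
Histone gene levels at day 12, as log2 of CPM plus 0.1, on EV (left) and *hda-1* RNAi (right), with 1 point per library for *glp-1(-)* control (grey) and *set-26* (red), ordered by fold change, with an asterisk for the 13 genes called lower on *hda-1* RNAi. Most genes at the top sit near the lower limit on EV in both genotypes and higher on *hda-1* RNAi, where the red points lie left of the grey ones.

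Other genes that fell came from several lists, some of them with shares of calls near that of all genes. In either direction 3.25% of all genes were called (1.15% lower). The share was 16.3% for the lysozyme list, 15.4% for desaturases and elongases and 6.9% for fatty acid oxidation. *col-119*, a cuticle collagen, had 5067 and 3928 control reads and 936 and 705 mutant reads (log2 fold change -2.52, standard error 0.26, adjusted p = 0.000808), and *col-84*† and *col-48*† were the other calls among 88 collagens (3.41%, against 3.25% of all genes). The antibacterial lysozymes *ilys-2*†, *lys-3*† and *lys-4*† fell, *ilys-2* from 7171 and 3236 to 1251 and 1226 reads, while their list as a whole gave 4 higher and 4 lower calls of 49, and without 1 library 3 to 5 calls. Neuropeptide genes gave 2 higher and 5 lower calls of 126 (5.56%, against 3.25% of all genes), and 1 to 3 lower calls without any 1 library. Among the 5 were *nlp-59* (300 and 225 against 47 and 90 reads) and the insulin-like *ins-23*† (321 and 584 against 100 and 163). Of 13 desaturase and elongase genes 2 fell, and 0 were called without either control replicate or without *set-26* replicate 1. These were *fat-1*†, which makes omega-3 fatty acids (3539 and 2848 against 810 and 1605 reads), and *fat-6*†, a stearoyl-CoA desaturase (2497 and 1926 against 832 and 1135). Peroxisomal fatty acid oxidation gave 3 lower calls, *acox-1.1*†, *acox-3*† and *maoc-1*†, of 58 oxidation genes, and 0 lower calls without either control replicate or without *set-26* replicate 1. *crt-1*†, the chaperone calreticulin of the endoplasmic reticulum, had 45925 and 43143 reads in control and 16232 and 20446 in *set-26* (log2 fold change -1.38, standard error 0.21, adjusted p = 0.00914). All 8 subunits of the cytosolic chaperonin, a group chosen after values were seen, had lower levels with a median of -0.80, and 3 of them, *cct-5*†, *cct-6*† and *cct-8*†, were called, and 0 without control replicate 2 or either *set-26* replicate. *cct-8* had 270 and 284 against 94 and 102 reads. Cytosolic ribosomal protein genes were slightly lower as a body, with a median of -0.35 and 78 of 80 values below 0, but 2 were called, *rpl-41.2*† and *rps-20*†, with 7 by DESeq2 and 0 by edgeR without any 1 library. The greatest falls among called genes with a mean of at least 50 reads were those of *F53F1.4*† (91 and 457 against 18 and 12 reads) and the pseudogene WBGene00023401† (346 and 1445 against 79 and 53). In both, control replicate 2 held several times the reads of control replicate 1.

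Nuclear-encoded mitochondrial genes gave few calls between the genotypes at day 12, on this diet and on EV, although many were called at day 3 on *hda-1* RNAi. Of 72 genes for the mitochondrial ribosome and its translation factors, 0 were called at day 12 (median log2 fold change -0.05), while 24 of 72 were higher at day 3 on *hda-1* RNAi (median 0.84). Over all genes 3.25% were called at day 12 and 9.43% at day 3. DESeq2 called 1 of the 72 at day 12, and 2803 of the 14256 genes tested at day 12 had an unadjusted p under 0.05. For mitochondrial chaperones and proteases the calls were 0 of 13 at day 12 and 5 of 13, all higher, at day 3. For import and dynamics they were 1 of 16 and 9 of 16, and for the respiratory chain 2 of 46, both lower, at day 12 and 7 of 48, all higher, at day 3. On EV at day 12, where 4.67% of all genes were called, these lists also gave few calls. In the same order they were 1 higher and 1 lower of 72, 0 of 13, 2 higher of 16 and 0 of 47. The direct test of the change between days called 4, 0, 3 and 3 genes of these lists, all toward a smaller or negative difference at day 12. *timm-23*, an import channel subunit, had a difference of 2.24 at day 3 and -0.52 at day 12 (interaction -2.71, adjusted p = 0.00161). *gfm-1*, a mitochondrial elongation factor, had a change between days of -1.66 and a day 12 difference of 0.40 (interaction adjusted p = 0.0465), *tsfm-1* -1.69 and -0.40 (0.0415), and *scpl-4* -1.46 and -0.12 (0.0486). The chaperone *hsp-6*, a reporter of mitochondrial stress, had 655 and 821 control reads and 302 and 563 mutant reads at day 12, a difference of -0.90 (adjusted p = 0.23) against 1.13 at day 3, and the change between days was not called (adjusted p = 0.0916). With the replicate number as a block, or with no filter, *hsp-6* was called lower at day 12. *hsp-60*, *tufm-1*, *tufm-2*, *tin-9.1* and *drp-1* likewise were called higher at day 3 and had day 12 differences between -0.43 and 0.63 with no call.

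**Figure D3:**
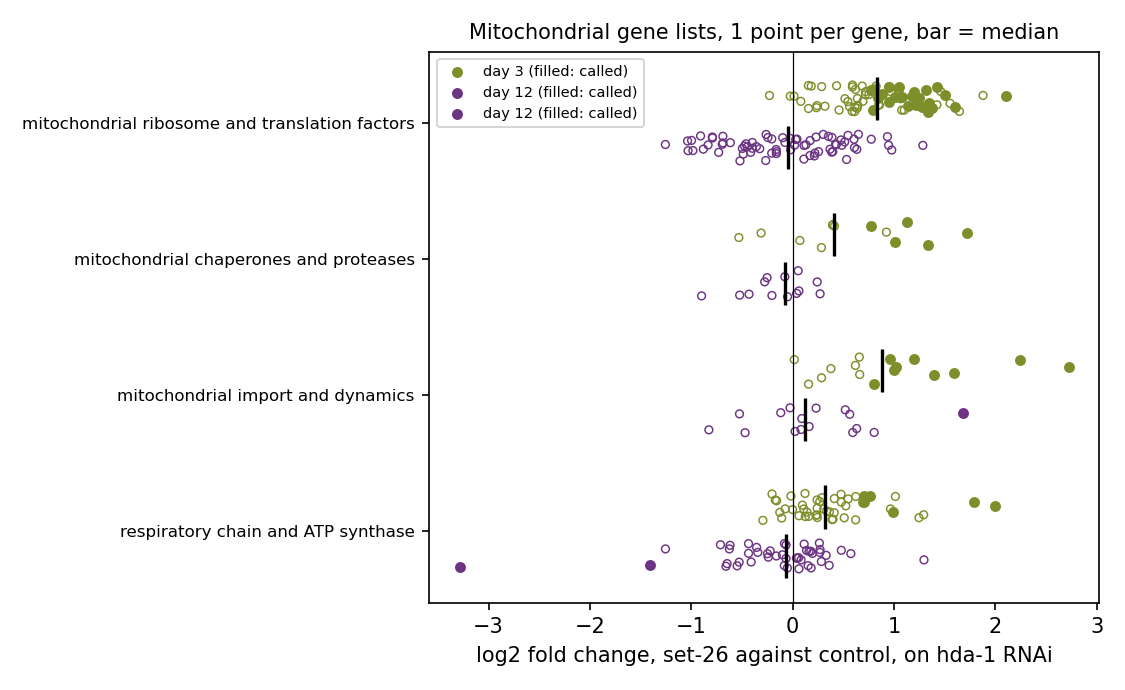
Log2 fold changes of *set-26* against control on *hda-1* RNAi for the genes of 4 mitochondrial lists, at day 3 (green) and day 12 (purple), with 1 point per gene, filled where called, and a black bar at the median. The median of the ribosome and translation list is 0.84 at day 3 and -0.05 at day 12, and *mff-2*† is the filled purple point of the import and dynamics list.

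An exception was *mff-2*†, related to mammalian mitochondrial fission factor. It had 127 and 118 control reads and 419 and 419 mutant reads at day 12 on *hda-1* RNAi (log2 fold change 1.69, standard error 0.24, adjusted p = 0.00542), and its difference on EV was 2.83 (adjusted p = 0.00023). The mutant level was lower on *hda-1* RNAi than on EV (log2 fold change -1.50, adjusted p = 0.00237). The genotype by diet interaction of edgeR, fitted without a block, was called for 0 genes, so that fit did not show a fall limited to the mutant. With the population as a block, 1 of the 16 genes of the import and dynamics list was called. The value of *mff-2* in that fit is not given here. The lower respiratory calls were *mev-1*†, a subunit of complex II (356 and 353 against 131 and 156 reads), and *cox-17*†, a copper chaperone with few reads (23 and 33 against 3 and 3).

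Between days the *set-26* difference on *hda-1* RNAi changed in both directions. At day 3, 1195 of 12678 genes were called (9.43%), 729 higher (5.75%) and 466 lower (3.68%). Of the 463 day 12 calls 137 were also called at day 3 (29.6% of the day 12 and 11.5% of the day 3 calls), 101 higher and 29 lower on both days and 7 in opposite directions. Libraries of both days came from the same populations. The genotype by day interaction was called for 292 of 14597 genes (2%), 151 with a positive term (1.03%) and 141 with a negative one (0.966%), and for 710 with the population as a block. The 292 included 62 of the day 12 higher calls with a larger difference at day 12, and 7 with a smaller one, and 21 of the day 12 lower calls with a more negative one. Read from day 3, they included 114 higher calls with a negative term and 75 lower calls with a positive one. Each tally favours the day on which its genes were chosen, since the same libraries entered both tests. The *pals* difference was larger in old worms. At day 3, 5 of its members were higher and 1 lower with a median of 0.25, and 8 of 33 had a called interaction, all toward a larger difference at day 12. *pals-14* moved from 1.93 at day 3 to 6.14 at day 12 (interaction adjusted p = 6.31e-05) and *pals-6* from 0.95 to 4.35 (adjusted p = 0.00025). *ddn-1* moved from -0.21 to 2.86 (adjusted p = 0.000438). *ZK355.3* turned over, from -2.69 to 4.10 (adjusted p = 0.000242), both called, and *col-119* turned from 1.40 to -2.52 (adjusted p = 2.71e-05). The day 3 count was 483 and 501 without control replicate 1 or 2 and 591 without *set-26* replicate 1. The interaction count was 105, 132, 133 and 164 without day 3 control replicate 1 or 2 or day 3 *set-26* replicate 1 or 2, and 163 without day 12 control replicate 2.

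The *set-26* difference on *hda-1* RNAi shared many calls with that on EV at the same age. On EV 636 of 13608 genes were called (4.67%), 439 higher (3.23%) and 197 lower (1.45%). Both diets shared 232 calls, which is 50.1% of the *hda-1* RNAi calls and 36.5% of the EV calls, with 177 higher and 55 lower on both and 0 opposite. These are different libraries, but of the same populations. The genes called higher on *hda-1* RNAi had a median log2 fold change of 2.02 there and 1.99 on EV, and 283 of the 291 tested on both had the same sign. The genes called lower had medians of -1.46 and -1.08, and 141 of 147 had the same sign. Read the other way, the genes called higher on EV had a median of 2.06 on EV and 1.21 on *hda-1* RNAi, with 420 of 436 of the same sign. Of the *pals* family 22 of 33 were called higher on EV and 18 on both diets, and *pals-14* had 420 and 405 control and 31314 and 39829 mutant reads on EV. The EV count was 1357, 422, 155 and 146 without control replicate 1, control replicate 2, *set-26* replicate 1 and *set-26* replicate 2.

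**Figure D4:**
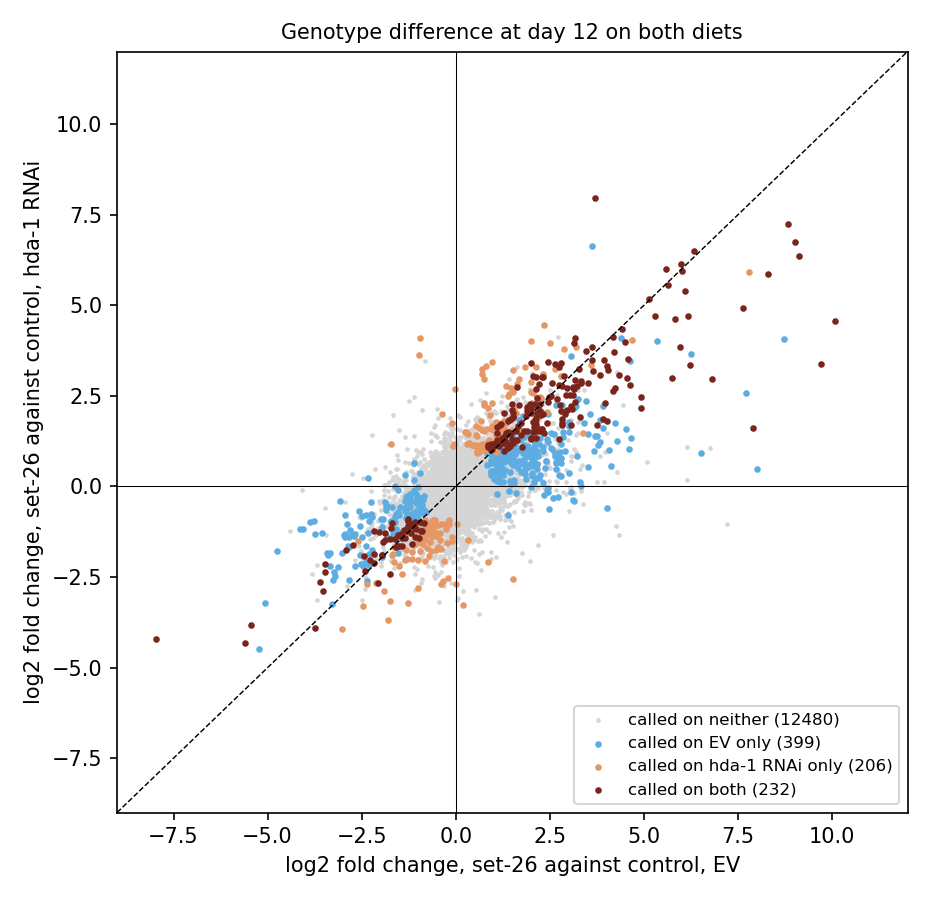
Log2 fold changes of *set-26* against control at day 12 on EV (horizontal) and *hda-1* RNAi (vertical), with 1 point per gene tested on both and colours for the diets on which it was called. The 232 genes called on both diets have values of the same sign on both axes, and the dashed line marks equal values.

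Whether *hda-1* RNAi changed the genotype difference was tested directly. The genotype by diet interaction was called for 0 of 14836 genes by edgeR, with 839 at an unadjusted p under 0.05, and for 22 (0.148%) by DESeq2. Without EV control replicate 1 edgeR called 13. With the population as a block, since each population was divided between the diets on day 1, 183 genes (1.23%) were called, 43 with a more positive and 140 with a more negative difference on *hda-1* RNAi. None of the *pals* genes was among them. Of the 183 genes 56 had a negative term and were called higher in *set-26* on EV, and 11 of these 56 were also called higher on *hda-1* RNAi. Both conditions used the same libraries. A smaller difference on *hda-1* RNAi and a more positive diet response in control were therefore fixed by this choice of genes. Several of these genes, chosen after values were seen, had control levels closer to those of the mutant on *hda-1* RNAi than on EV. *grd-3*, a hedgehog-related secreted protein, had 21 and 8 control and 296 and 370 mutant reads on EV, and 236 and 245 against 381 and 376 on *hda-1* RNAi (blocked interaction adjusted p = 6.22e-05). The related *grd-5* went from 52 and 13 (control) against 498 and 563 (mutant) to 370 and 238 against 631 and 630 (adjusted p = 0.000126). *grsp-4*, a glycine-rich secreted protein, went from 116 and 53 against 674 and 767 to 1045 and 1108 against 672 and 1224 (adjusted p = 3.7e-05). In these genes the control rose on *hda-1* RNAi, by 3.95, 3.14 and 3.59 on the log2 scale (all called), and the mutant by 0.38, 0.45 and 0.58 (none called). The same values entered the choice of these 3 genes, so the calls are no further evidence. *rab-11.2*, a Rab GTPase close in sequence to *rab-11.1*, behaved alike in control (8 and 15 reads on EV, then 207 and 278 on *hda-1* RNAi) but kept a difference of 2.99 on *hda-1* RNAi (adjusted p = 0.000575) beside 5.75 on EV. *col-119* showed another pattern, with 1393 and 355 control reads and 1015 and 866 mutant reads on EV, where the genotypes overlapped. Its control rose on *hda-1* RNAi by 2.33 and its mutant by 0.01 (blocked interaction adjusted p = 0.00073, DESeq2 adjusted p = 0.0122).

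**Figure D5:**
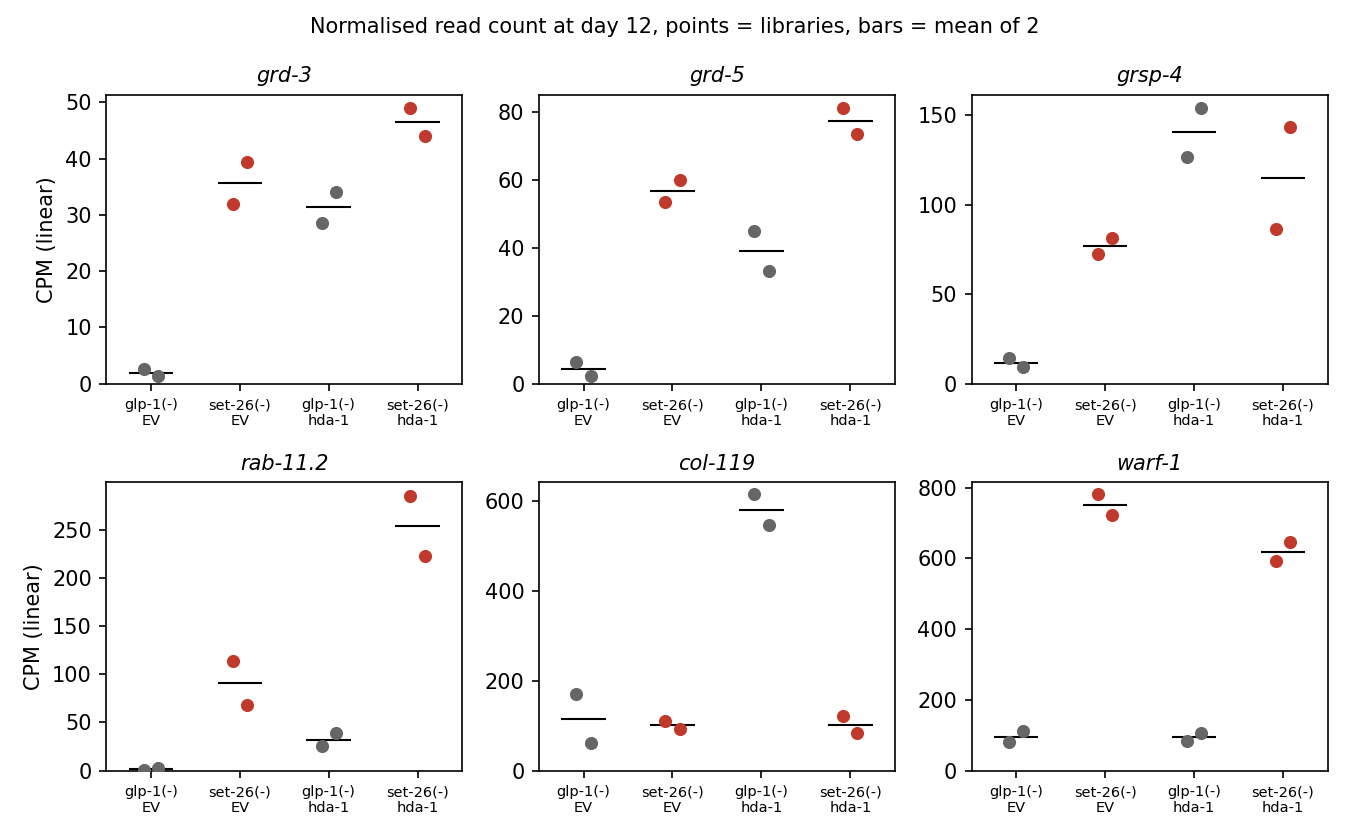
CPM (linear axis from 0) of 6 genes in the 8 control (grey) and *set-26* (red) libraries of day 12, with 1 point per library and a bar at the mean of 2. *grd-3*, *grd-5* and *grsp-4* are low only in control on EV, *col-119* is high only in control on *hda-1* RNAi, and *warf-1* is high in *set-26* on both diets.

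The *set-26* mutants were also compared directly with *hcf-1* mutants on the same diet. The same *set-26* libraries entered this test and the test against control. Genes chosen for a large *set-26* difference from control are therefore prone to a larger difference from *hcf-1* as well. Between *set-26* and *hcf-1* 194 of 14256 genes were called (1.36%), 114 higher (0.8%) and 80 lower (0.561%) in *set-26*. Of the 299 genes higher in *set-26* than control, 65 were also called in this direct test, and of the 164 lower genes 6 were. This count was 45 and 39 without *hcf-1* replicate 1 or 2 and 99 without *set-26* replicate 1. Among 33 *pals* genes 12 were higher and 0 lower in *set-26* than *hcf-1*, and the median log2 fold change against the shared control libraries was 1.69 in *set-26* and 0.71 in *hcf-1*. *pals-14* differed from control by 6.14 in *set-26* and 3.10 in *hcf-1*, and *pals-5* by 5.56 and 1.52. The direct differences were 3.04 (adjusted p = 0.000468) and 4.04 (0.000131), so both genes were raised in both mutants and more in *set-26*. *F26F2.3* differed from control by 5.94 and 0.71 (direct adjusted p = 0.00271). *warf-1*, an ARF-like small GTPase, had 691 and 756 reads in control and 4612 and 5528 in *set-26*, and *hcf-1* differed from control by -0.93. Between the mutants the difference was 3.63 (adjusted p = 0.000468). *M163.15* (3.94 and 0.97, direct adjusted p = 0.00624) and *pqn-84*† (2.12 and -1.61, adjusted p = 0.000945) were also higher in *set-26* than in *hcf-1*. In contrast, *col-84*† was lower than control in *set-26* and higher in *hcf-1* (-2.88 and 2.09, direct adjusted p = 0.00227). For histone genes the median against control was -1.27 in *set-26* and -1.16 in *hcf-1*, and 0 of 36 were called between the mutants. For *C46A5.6*, *sru-40*, *dsb-3* and *syp-1* the direct test was not called either, with differences from control of 5.38, 5.18, 4.69 and 3.28 in *set-26* and 4.96, 4.86, 4.14 and 2.36 in *hcf-1*. A missed threshold does not show that the mutants act alike.

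Genes that work with HDA-1 or at lysine K4 of histone H3 were read against the 3.25% of all genes called. Of 12 histone deacetylase genes 1 was called (8.33%), *hda-5*†, with 206 and 145 control reads and 396 and 351 mutant reads (log2 fold change 1.02, adjusted p = 0.0497). The closest relatives of *hda-1* had differences of 0.08 (*hda-2*) and -0.37 (*hda-3*) and were not called. Of 16 partner genes of HDA-1 complexes and 17 genes of H3K4 methylation 0 were called, with medians of 0.22 and 0.39. Vitellogenins, the yolk proteins of the intestine, also gave 0 calls of 6 at day 12 (median -0.53), while all 6 were lower in *set-26* at day 3. The day 12 median was 0.58 without control replicate 1 and -1.16 without control replicate 2, so its direction rests on single libraries. Hedgehog-related genes, UDP-glucuronosyltransferases, transthyretin-related genes and proteasome subunits gave 0 calls of 52, 61, 50 and 31 with edgeR, and DESeq2 called 1 hedgehog-related gene higher and 2 lower.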

How the data were processed

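RNA of pooled whole worms was made into QuantSeq libraries, which prime on poly(A) and place reads at the 3' ends of transcripts. Per the labels and the study's methods, the authors trimmed reads with Trim Galore 0.6.5, aligned them with STAR 2.7.9a to WBcel235 (ce11), kept uniquely mapped reads with few mismatches, and deposited raw counts per gene from STAR's stranded gene counts. Their annotation release is not given in the sources used here. The sources name no use of molecular identifiers, so reads are not independent molecules. No sequence is printed, since no genome was used here.

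Counts were analysed as deposited with edgeR 4.0.16 in R 4.3.3 (TMM scaling, quasi-likelihood F test), keeping genes with more than 10 reads in at least 2 libraries of a fit. P-values were adjusted by Benjamini-Hochberg over all genes tested and called under 0.05, and each standard error is the absolute log2 fold change over the root of its F statistic. The day 12 *hda-1* RNAi fit held control, *set-26* and *hcf-1* libraries, the EV and day 3 fits the same genotypes, and the interactions were fitted over 12 libraries each. DESeq2 1.42.0, another scaling, no filter, other sets of libraries and leaving out each library were the alternatives.

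The diet and day interactions were also fitted with the population as a block. Within a genotype the number marks a population, which the study's methods say was divided on day 1, and deviations from the group means of libraries with the same number on both diets correlated at 0.418 in control, 0.435 in *set-26* and 0.397 in *hcf-1*. Between genotypes the labels do not say what a shared number marks.

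Members and lists were chosen with earlier results of these data known. Genes were named by rule: the targeted genes, the 15 called genes with the largest change in each direction among those with a mean of at least 50 reads and no overlap between groups, the 8 in each direction called on both diets with the largest smaller change, up to 4 called members per list, the mitochondrial genes the study names, and all members of short lists. Named outside this rule, after their values were seen, were *pals-2*, *pals-3*, *pals-4*, *pals-8*, *pals-9*, *pals-15*, *pals-7*, *pals-28*, *pals-32*, *pals-22*, *pals-25*, *F26F2.1*, *B0507.8*, *ddn-1*, *fbxa-75*, *fbxa-182*, *zip-1*, *drh-1*, *cul-6*, *pnp-1*, *eol-1*, *hrg-7*, *hrg-2*, *hrg-1*, *hrg-3*, *fbxa-66*, *cir-1*, *COX3*, *hpl-1*, *hpl-2*, *his-60*, *his-74*, *his-72*, *his-71*, *his-15*, *cct-5*, *cct-6*, *cct-8*, *grd-3*, *grd-5*, *grsp-4*, *rab-11.2*, *rab-11.1*, *warf-1*, *pals-24*, *pals-26*, *pals-27*, *pals-33*, *fbxa-14*, *fbxa-74*, *fbxa-199*, *his-59*, *cdr-1*, *cex-1*, *bcmo-1* and the tRNA gene WBGene00014456.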

Additional observations from a re-analysis of the deposited data

Results flagged for a closer look

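The difference between *set-26* and control on *hda-1* RNAi changed between day 3 and day 12 for 292 genes by the genotype by day interaction of edgeR, which is what set these results apart. The values below are log2 changes of that difference from day 3 to day 12 for named genes, some chosen after their values were seen, and a positive value means a more positive difference at day 12. A dagger (†) marks genes whose day 12 call was lost when at least 1 library was left out. It says nothing of how stable the interaction was. The genes *pals-26*, *vit-3*, *glh-1*, *scpl-4*, *gfm-1*, *tsfm-1*, *timm-23*, *his-15* and *lbp-8* were not called at day 12 and so carry no dagger. Age and the separate collection of the libraries of each day cannot be told apart. Among *pals* genes the change was 4.40 for *pals-5*, 4.26 for *pals-14*, 3.46 for *pals-6*, 2.96 for *pals-8*, 2.52 for *pals-27*, 2.20 for *pals-33*†, 1.70 for *pals-26* and 1.49 for *pals-24*†. Among other intracellular pathogen response genes it was 8.40 for *F26F2.3*, 3.38 for *F26F2.1*, 3.35 for *B0507.8*, 3.12 for *ddn-1* and 1.69 for *fbxa-182*. F-box A genes outside that list gave 2.697 for *fbxa-199*†, 2.51 for *fbxa-66*, 2.39 for *fbxa-74*† and 2.097 for *fbxa-14*†, and the heme genes gave 1.91 for *hrg-7* and 1.45 for *hrg-1*. The remaining positive values were 6.84 for *ZK355.3*, 4.63 for *M163.15*, 3.46 for *clec-106*†, 3.30 for *cyp-35A1*†, 3.17 for *vit-3*, 1.69 for *glh-1*, 1.61 for *flp-34*† and 1.43 for *hda-5*†. Mitochondrial genes moved the other way, by -1.42 for *mev-1*†, -1.46 for *scpl-4*, -1.66 for *gfm-1*, -1.69 for *tsfm-1*, -2.71 for *timm-23* and -4.52 for *cox-17*†. Histone genes gave -2.98 for *his-15* and -7.92 for *his-59*†, and *cyp* genes and the cadmium-responsive *cdr-1*† gave -1.32 for *cyp-33C8*†, -1.35 for *cyp-14A1*† and -1.85 for *cdr-1*†. The remaining negative values were -1.46 for *vha-2*†, -1.53 for *cct-5*†, -2.19 for *F59C12.4*†, -2.37 for *F09E10.15*†, -2.38 for *cex-1*†, -2.64 for *ZK896.4*, -2.702 for *ilys-2*†, -2.73 for *lbp-8*, -2.88 for *clec-17*, -3.19 for *bcmo-1*†, -3.27 for *ins-23*†, -3.88 for *col-119* and -4.56 for *acdh-1*. Genes with few or no reads on a day have fitted values that depend on the prior count. *F26F2.3* and *his-59*† are such genes.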

How the results depend on the processing

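With 2 libraries per group, counts of calls moved with the settings. Of the 80 called genes named by rule 0 changed sign under any of the 10 alternatives. The groups did not overlap in any called gene, so leaving out 1 library could hardly reverse a sign. The absence of sign changes is therefore no measure of stability. Of the 109 uncalled genes named by rule 42 changed sign. Of the 80, 24 kept the call under every alternative tried. Calls between *set-26* and control on *hda-1* RNAi at day 12 numbered 463, and 807 with DESeq2, 1413 with no filter on low counts, and 283 with only the compared genotypes in the fit, with 89 to 298 when 1 library was left out. DESeq2 shared 462 of the 463 calls, and fits with an arm of 1 library take its spread from the other groups. Without the filter many genes with few reads enter. On EV the 636 calls became 972 with DESeq2 and 1536 without the filter, and 146 to 1357 without 1 library. At day 3 the 1195 calls became 483 to 971 without 1 library. Between *set-26* and *hcf-1* the 194 calls became 476 with DESeq2 and 962 without the filter, and 39 to 171 without 1 library. The genotype by diet interaction gave 0 calls, 22 with DESeq2 and 167 without the filter, and 0 to 13 without 1 library. The genotype by day interaction gave 292 calls, 564 with DESeq2 and 752 without the filter, and 105 to 362 without 1 library.

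A replicate block gave 1976 calls on *hda-1* RNAi at day 12, 1837 at day 3 and 1365 between *set-26* and *hcf-1*, where the labels do not say what a number marks, and all 463 calls made without the block were among the 1976. Deviations of same-numbered libraries correlated at 0.267 between control and *set-26*, 0.314 between control and *hcf-1* and 0.404 between *set-26* and *hcf-1* on *hda-1* RNAi, and at 0.074 between control and *set-26* on EV. With the population as a replicate block, where the pairing comes from the split of each population, the diet interaction gave 183 calls and the day interaction 710. The cause of these shifts was not tested. Among the uncalled named genes, differences that changed sign when 1 library was left out ranged over -0.47 to 0.076 (*COX3*), -0.50 to 0.39 (*cul-6*), -0.22 to 0.071 (*drh-1*), -0.37 to 0.68 (*glp-1*), -0.69 to 0.031 (*grsp-4*), -0.89 to 0.0099 (*hda-1*), -0.091 to 0.26 (*hda-2*), -0.77 to 0.19 (*hda-3*), -0.28 to 0.66 (*hpl-1*), -1.16 to 0.20 (*hsp-60*), -0.64 to 0.79 (*lbp-8*), -0.44 to 0.44 (*pals-22*), -0.035 to 0.36 (*pnp-1*), -0.40 to 0.60 (*rab-11.1*), -0.31 to 0.078 (*scpl-4*), -0.12 to 1.85 (*set-9*), -0.060 to 0.32 (*tufm-2*) and -0.59 to 0.52 (*vit-3*) on the log2 scale. *vit-3* was also at -0.000574 with no filter and -0.023 with a replicate block. Genes with few reads, such as *cox-17*† and *col-84*†, are limited by counting error. A dagger (†) marks a call lost when at least 1 library was left out.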
